A study of Mus musculus with 6 samples.

Results

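The 27 genes described here carry inhibitory transmission by GABA and glycine in the lateral septum of mice, a forebrain nucleus whose projection neurons are themselves largely GABAergic. The list was set by symbol, with earlier results of these data known, and holds 12 subunits of the GABA-A receptor, 2 of the GABA-B receptor and 4 of the glycine receptor, 3 genes of GABA synthesis and vesicle loading, 3 of uptake and breakdown, 1 scaffold and 2 chloride transporters. It does not hold every gene of these families. All 27 symbols were found among the 35415 genes of the deposited tables, and 26 of them were among the 17255 genes with enough counts to be tested. The study fed wild-type (WT) female C57BL/6 mice, which arrived at about 8 weeks of age and had 1 week of acclimation, for 12 weeks with maintenance feed that held olanzapine at 50 mg per kg, or with the same kind of chow without it as the control. Olanzapine is an antipsychotic drug that acts on many receptors and is known for weight gain. Septal tissue from 3 mice was pooled for each total RNA library, with 3 such pools for each diet, and the values are therefore those of 3 pools a group, with no measure of how single mice varied. Neither group carried a transgene or a deletion.

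GABA is made from glutamate in the neuron, loaded into synaptic vesicles, released, taken up again by neurons and astrocytes and broken down in mitochondria. It opens the pentameric chloride channels of the GABA-A family, whose subunits set the place and the speed of the response, and it acts through G proteins on the GABA-B receptor, while glycine opens a related family of chloride channels. Whether the opened channel inhibits the cell depends on the chloride gradient, which the KCC2 and NKCC1 cotransporters set.

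The sequences just upstream of 4 of the genes are shown as examples. Of these, Gad1, Gad2 and Slc32a1 were highest in control pool 1 and lowest in olanzapine pool 1, while Gabbr2 was highest in olanzapine pool 1. These patterns were not particular to the 4 genes. Gabrg1, Gabrg3, Gabre, Gabrq, Glra2, Slc6a11 and Abat shared the first, and Gabra3, Gabra5 and Slc6a13 were also highest in olanzapine pool 1. The sequences come from the RefSeq promoter windows for GRCm38.p6, cut to the stretch outside the exons of the gene itself. They are written 5′ to 3′ on the strand of the gene, and capitals mark a motif. The Gad1 stretch is chr2:70561879-70562041 on the + strand, inside the annotated gene span and 88 bases before the RefSeq start. The Gad2 stretch is chr2:22622077-22622204 on the + strand, 123 bases before the RefSeq start. The Slc32a1 stretch is chr2:158610508-158610757 on the + strand, next to the RefSeq start and across an exon of the noncoding gene Gm14204. The Gabbr2 stretch is chr4:46991874-46991964 on the - strand, 160 bases before the RefSeq start.
Gad1: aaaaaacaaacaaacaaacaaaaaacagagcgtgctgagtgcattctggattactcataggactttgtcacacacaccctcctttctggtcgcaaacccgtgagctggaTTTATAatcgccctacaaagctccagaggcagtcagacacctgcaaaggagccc
Gad2: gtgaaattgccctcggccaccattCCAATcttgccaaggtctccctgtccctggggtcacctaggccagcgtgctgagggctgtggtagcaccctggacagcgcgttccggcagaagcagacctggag
Slc32a1: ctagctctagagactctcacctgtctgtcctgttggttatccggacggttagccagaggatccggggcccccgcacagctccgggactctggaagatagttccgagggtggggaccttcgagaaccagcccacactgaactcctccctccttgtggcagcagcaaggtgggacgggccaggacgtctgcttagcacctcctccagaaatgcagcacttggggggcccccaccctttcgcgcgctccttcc
Gabbr2: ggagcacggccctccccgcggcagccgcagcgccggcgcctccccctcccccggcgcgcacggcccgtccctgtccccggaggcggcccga

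The motifs searched on both strands were the homeodomain core with the letters TAATTA, the GC box with GGGCGG, the cAMP response element with TGACGTCA, the TATA box with the letters TATAAA, and the CCAAT box, written as its name. The Gad1 stretch held 1 TATA box, read as TTTATA on the strand shown, a motif found in 7.78% of all windows cut to the same stretch. The Gad2 stretch held 1 CCAAT box, found in 17.2% of all windows cut likewise, and neither the Slc32a1 nor the Gabbr2 stretch held any of the 5 motifs. The Gabbr2 stretch was 85.7% G and C, against 46.6% in Gad1, 62.5% in Gad2 and 62.4% in Slc32a1. Over the full windows, from 250 bases before to 50 after each start, 23 of the 27 genes had an entry, with 30 windows in all. A GC box was in 53.3% of these and in 32.7% of all 32851 windows, a CCAAT box in 43.3% and 33.8%, a TATA box in 16.7% and 12.4%, and TAATTA in 3.33% and 4.84%. The cAMP response element was in 0 of the 30 windows and in 1.55% of all windows. These are matches of letters and say nothing of the binding of a factor.

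The counts on genes summed to between 38208153 and 39868872 per pool. Before the genes themselves, the tissue was checked against markers. All 15 lateral septum neuron markers were detected in every pool. Sst, which also marks interneurons, was at 186 to 206 FPKM (fragments scaled to transcript length and library size) in the control pools and at 203 to 243 FPKM in the olanzapine pools. The other 14 summed to 248, 229 and 212 FPKM in control pools 1 to 3 and 148, 199 and 230 FPKM in olanzapine pools 1 to 3. Of the 15 markers, 12 had a log2 fold change below 0, with a median over the list of -0.33, and the lowest pool was olanzapine pool 1, at a mean log2 difference of -0.54 from the control mean. Olanzapine pool 1 stood apart from the others in markers of cortical glutamatergic neurons. Slc17a7, their vesicular glutamate transporter, was at 7.60, 15.4 and 18.7 FPKM in control pools 1 to 3 and at 221, 7.41 and 3.64 FPKM in olanzapine pools 1 to 3. All 7 markers of that list were above 0 in every pool. Choroid plexus markers, all 8 above 0 in every pool, ranged in summed FPKM from 45.2 to 5365 in the control pools and from 29.1 to 3452 in the olanzapine pools. Of 12 hepatocyte markers 11 were called higher in the olanzapine pools, and so were 4 of 6 nuclear-retained long noncoding RNAs.

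The levels of the 27 genes spanned a wide range. Per transcript length, Abat, Gabbr1 and Gad1 were the most abundant, at mean FPKM over the 6 pools of 140, 136 and 134. Slc6a11 followed at 104, Slc12a5 at 93.6, Slc32a1 at 84.0 and Gad2 at 80.0. Glrb at 47.2 stood below Gad2 in all 6 pools with no overlap of their ranges. The most abundant ionotropic subunits after Glrb were Gabra3 at 33.0, Gabrb2 at 25.3 and Gabra4 at 23.6, while Gabrg1 at 8.53 was far lower. At the low end were Glra3 at 1.85, Gabre at 1.75, Slc6a13 at 1.10, Glra1 at 0.571 and Gabra6 at 0.0259. In this order only the steps from Gad2 to Glrb and from Glra1 to Gabra6 had ranges over the pools that did not overlap. Within pools some neighbors with overlapping ranges still kept their order in all 6, such as Gad1 above Slc6a11, Slc32a1 above Gad2 and Gabra3 above Gabrb2. Others did not, with Abat above Gabbr1 in 4 of 6 pools and Gabrb1 above Gabra2 in 3 of 6.

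**Figure D1:**
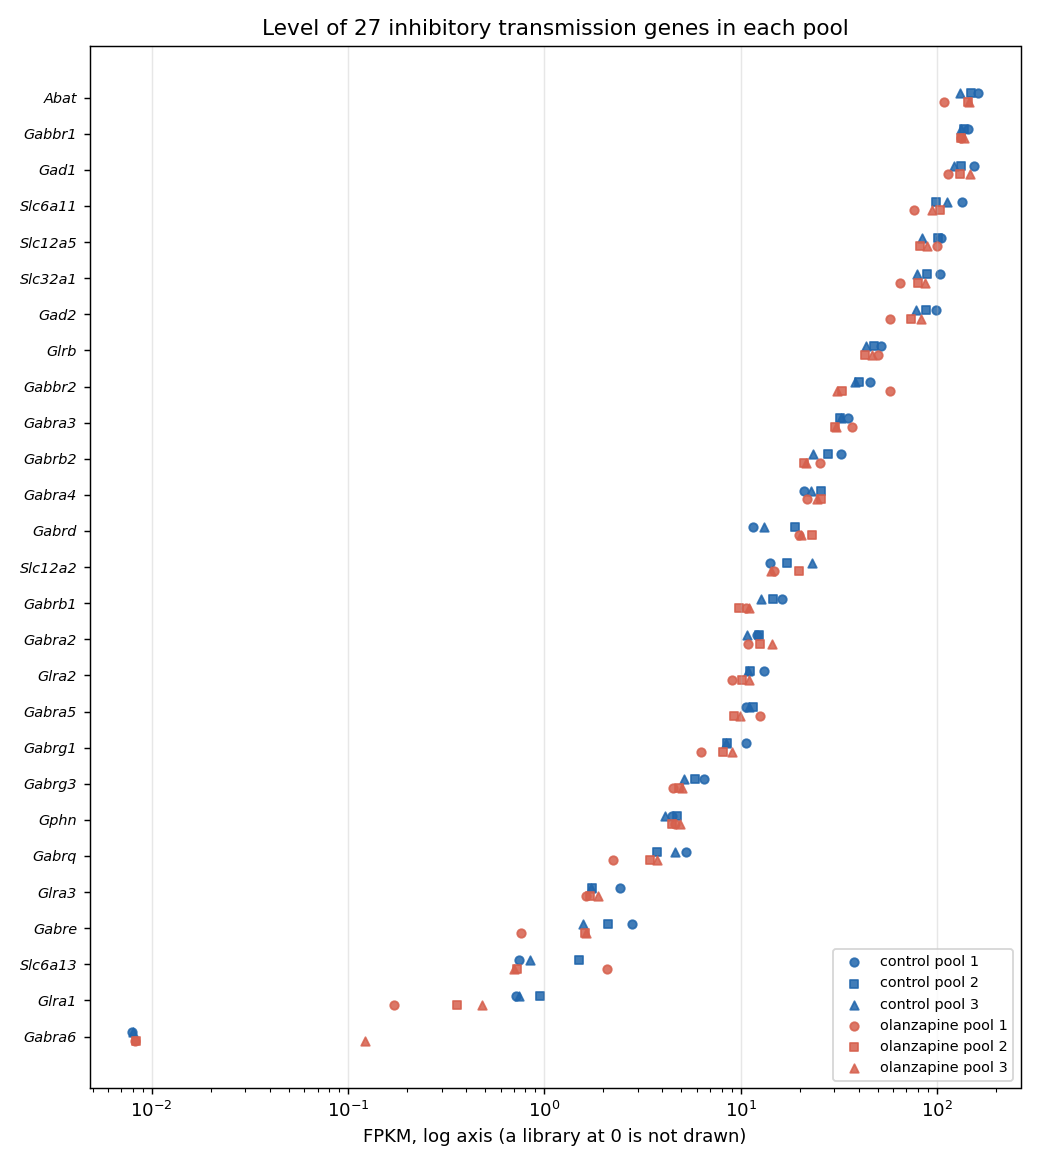
FPKM of each of the 27 genes in each pool on a log axis, ordered by mean level, with control pools in blue and olanzapine pools in red and the pool number given by the marker shape. The genes run from Abat at a mean of 140 down to Gabra6 at 0.0259, and the control and olanzapine points of a gene lie close together in most rows, with Glra1 and Gabrd apart. Gabra6 in control pool 2 was at 0 and is not drawn.

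To compare the diets, edgeR's quasi-likelihood test was run on the counts, and p was adjusted by the method of Benjamini and Hochberg over the 17255 genes. Log2 fold changes are olanzapine over control. No gene of the list passed this test: 0 of 26 had an adjusted p under 0.05, against 2.32% of all tested genes, and hence 0 passed this together with a fold change beyond 2, against 1.01%. At an unadjusted p under 0.05 there were 7 of 26 (26.9%), against 17.6% of all genes. These were Gabrb1, Gabrg3, Gabrq, Glra1, Gad2 and Slc6a11 with lower values (8.4% of all genes) and Gabrd with a higher one (9.19% of all genes). When control pool 1 was left out, 2 of 26 had an unadjusted p under 0.05 in edgeR, against 13.4% of all genes. DESeq2 called 2 of the genes at an adjusted p under 0.05, Gabrb1 and Glra1, against 5.73% of all genes, and 1 of them, Glra1, also passed the fold change limit, against 1.6%. Limma on log2(FPKM + 1) called 0, against 1.94%.

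The values leaned downward by a small amount. The log2 fold change was below 0 in 21 of 26 genes (80.8%), against 49.3% of all tested genes, and its median was -0.18, against 0.00 over all tested genes. On counts normalized by the trimmed mean of M values (TMM), the 3 olanzapine pools did not overlap the 3 control pools in 5 genes (19.2%), against 24.3% of all genes. Gabrb1, Gabrg3, Glra1 and Slc6a11 were below (11.0% of all genes) and Gabrd was above (13.3%). With all pools the share without overlap was no higher than the background. It was 46.2% without control pool 3, against 34.8% of all genes, and 46.2% without olanzapine pool 3, against 33.3%. Without olanzapine pool 1 it was 38.5%, against 37.6%. It lay below the background without control pool 1 (19.2%, against 33.0%), control pool 2 (23.1%, against 32.1%) or olanzapine pool 2 (19.2%, against 34.4%). Markers of neurons did not lean one way. Beside the 12 of 15 lateral septum markers below 0, whose median of -0.33 became -0.17 without olanzapine pool 1, all 5 markers of diencephalic and subcortical glutamatergic neurons were below 0, with a median log2 fold change of -0.50 that became -0.24 without that pool. Medial septum markers were below 0 in 4 of 6, with a median of -0.09 (-0.01 without olanzapine pool 1). Above 0 were 8 of 8 markers of striatal projection neurons, with a median of 0.29 (0.55 without olanzapine pool 1), 6 of 7 of interneuron classes, with a median of 0.19 (0.06), and 7 of 7 of cortical glutamatergic neurons, with a median of 2.17 (-0.72). The median of the 26 genes was -0.18 with and without that pool. Control pool 1 was the highest pool in 61.5% of the 26 genes, against 17.6% of all genes. Astrocyte markers were below 0 in 4 of 5, with a median of -0.20 (-0.15 without olanzapine pool 1), and those of brain endothelium in 5 of 5, at -0.39 (-0.74). Oligodendrocyte markers were below 0 in 3 of 5, at -0.06 (0.03), and microglia markers in 1 of 5, at 0.02 (0.11). The part of these cell types in the downward lean was not tested. In bulk tissue, fewer cells of a type and less RNA per cell cannot be told apart, which holds for every difference given here.

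**Figure D2:**
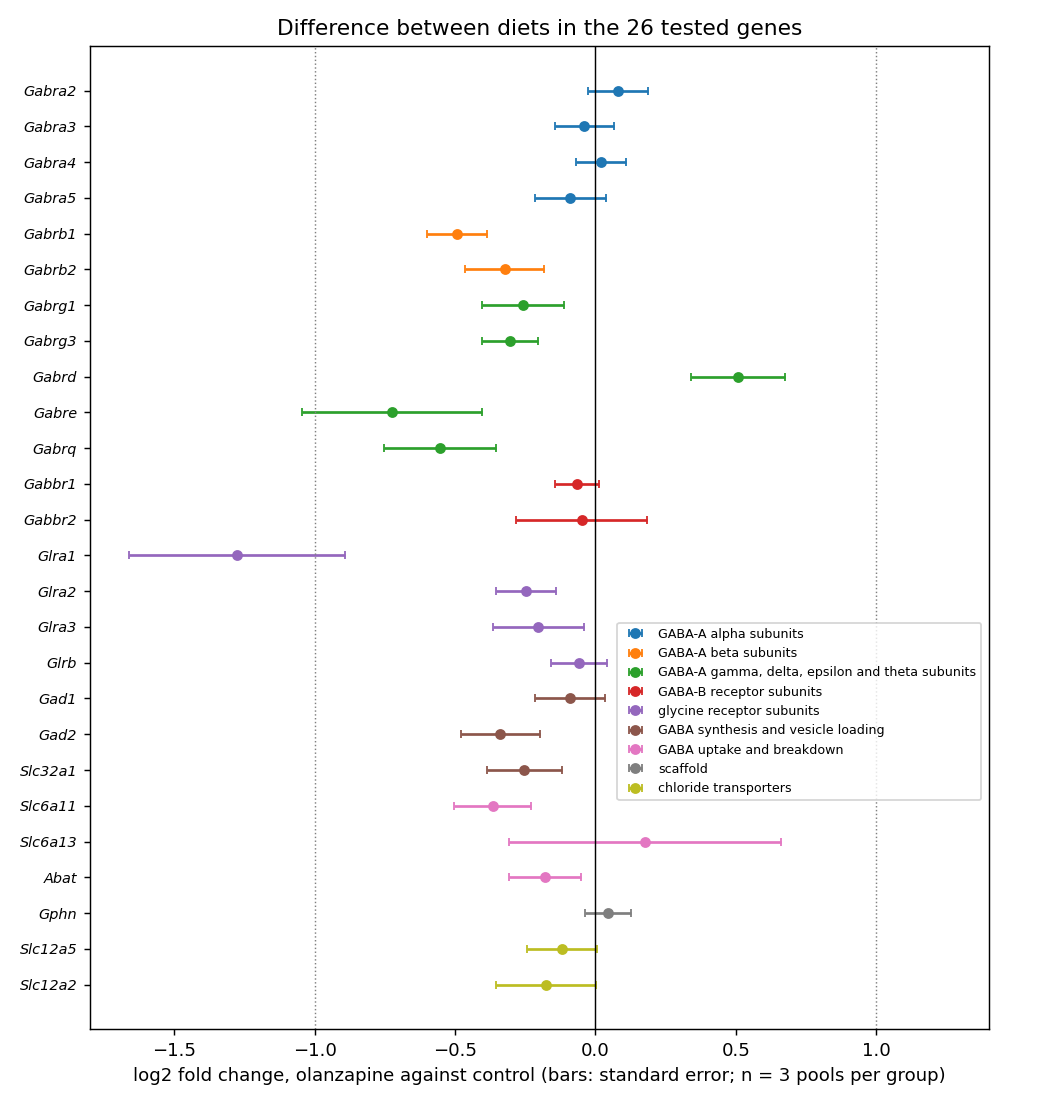
Log2 fold change of the 26 tested genes, olanzapine against control, with its standard error as the bar and colored by role, and dotted lines at a fold change of 2 in either direction. Most points lie between 0 and -0.5, Glra1 is lowest at -1.28 and Gabrd highest at 0.51.

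GABA synthesis and vesicle loading was lowest in olanzapine pool 1 in each of its 3 genes. Gad1, one of the glutamate decarboxylases that make GABA (chr2:70553072-70602014, GRCm38), was at 155, 133 and 123 FPKM in control pools 1 to 3 and at 113, 132 and 147 in olanzapine pools 1 to 3. Gad2, the decarboxylase found mostly at nerve terminals (chr2:22622205-22693874), was at 99.4, 88.2 and 78.2 in the control pools and at 58.0, 73.4 and 82.6 in the olanzapine pools. Slc32a1, the vesicular transporter of GABA and glycine (chr2:158610767-158615748), was at 104, 88.9 and 79.4 and at 64.6, 80.2 and 87.4. In all 3 genes control pool 1 was highest and the groups overlapped, because olanzapine pool 3 lay above control pool 3.
The log2 fold change was -0.09 ± 0.12 (SE) for Gad1, -0.34 ± 0.14 for Gad2 and -0.25 ± 0.13 for Slc32a1, with edgeR adjusted p of 0.759, 0.267 and 0.373. Without olanzapine pool 1 the values were -0.01, -0.22 and -0.15. Of the 15 lateral septum markers, 11 were lowest in olanzapine pool 1 and 8 were highest in control pool 1 on FPKM, while Sst and Gpr3 were highest in olanzapine pool 1. The part of septal neuron content in the pool differences was not tested.

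The ratio of Gad2 to Gad1 separated the groups. It stood at 0.641, 0.663 and 0.638 in the control pools and at 0.512, 0.558 and 0.561 in the olanzapine pools, so all olanzapine pools lay below all control pools. The log2 difference was -0.25. A two-sided exact permutation test gave p = 0.1, the smallest that 3 against 3 pools allow, and 0.6 after adjustment over the 6 ratios tested. The ratio of Gabrb1 to Gabrb2 differed by -0.17 on the log2 scale (exact permutation p = 0.2), and the other 4 ratios, of Slc12a5 to Slc12a2, Gabbr1 to Gabbr2, Slc6a11 to Slc6a13 and Glra3 to Glra2, had exact permutation p of 0.6 to 1.

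Of the genes of GABA uptake and breakdown, the astrocytic and the mitochondrial one were also lowest in olanzapine pool 1. Slc6a11, the GABA transporter of astrocyte processes (chr6:114131241-114249952), was at 134, 99.6 and 113 FPKM in the control pools and at 76.1, 104 and 94.7 in the olanzapine pools. Olanzapine pool 1 was lowest, and the groups did not overlap on TMM-normalized counts, whereas on FPKM olanzapine pool 2 lay above control pool 2. Its log2 fold change was -0.37 ± 0.14 (edgeR adjusted p = 0.220), and -0.26 without olanzapine pool 1. The 5 astrocyte markers, all above 0 in every pool, summed to 291 to 318 FPKM in the control pools and to 241 to 296 in the olanzapine pools, with the lowest sum in olanzapine pool 1. The part of astrocyte content in the Slc6a11 values was not tested.
Abat, the transaminase that breaks down GABA, was at 162, 149 and 132 in the control pools and at 109, 144 and 145 in the olanzapine pools, again lowest in olanzapine pool 1. The difference was small, a log2 fold change of -0.18 ± 0.13 (edgeR adjusted p = 0.508) that became -0.07 without that pool. Slc6a13, a GABA transporter known from the meninges and liver, was low and went the other way in olanzapine pool 1. It was at 0.743, 1.5 and 0.850 FPKM in the control pools and at 2.09, 0.725 and 0.705 in the olanzapine pools, with a log2 fold change of 0.18 ± 0.48 that became -0.57 without olanzapine pool 1. The 7 meningeal markers, all above 0 in every pool, summed to 10.7 to 58.1 FPKM in the control pools and to 21.9, 44.4 and 7.57 FPKM in olanzapine pools 1 to 3, and Igf2 alone gave 47.1 of the 58.1 FPKM in control pool 3. Col1a1, Slc22a6 and Slc47a1 were highest in olanzapine pool 1, as Slc6a13 was, and Dcn, Lum, Col1a2 and Igf2 were highest in control pool 3 or olanzapine pool 2. Among the hepatocyte markers, albumin (Alb) was at 3.30 to 6.18 FPKM in the control pools and at 63.7, 84.2 and 66.9 in the olanzapine pools. The part of either tissue in the Slc6a13 values was not tested.

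The GABA-A subunits are given by class, whose difference was not tested. The 4 tested alpha subunits, which form part of the GABA binding site and shape drug sensitivity, had log2 fold changes between -0.09 and 0.08. Without olanzapine pool 1 these were 0.16 for Gabra2, -0.16 for Gabra3, 0.07 for Gabra4 and -0.25 for Gabra5. Gabra3 was at 35.1, 32.0 and 32.4 FPKM in the control pools and at 37.2, 30.4 and 30.7 in the olanzapine pools. Gabra5 was at 10.6, 11.6 and 11.02 and at 12.5, 9.22 and 9.93. Both were highest in olanzapine pool 1 and lowest in olanzapine pool 2.
Gabra2 was at 12.1, 12.4 and 10.8 in the control pools and at 10.96, 12.5 and 14.4 in the olanzapine pools. Gabra4 was at 21.0, 25.8 and 22.9 and at 21.8, 25.6 and 24.5. The groups of both overlapped. Gabra6, the alpha subunit of cerebellar granule cells, was too scarce to be tested, with counts of 1, 0 and 1 in control pools 1 to 3 and of 1, 1 and 15 in olanzapine pools 1 to 3. Of the other cerebellar granule markers, Cbln3 was at or below 0.137 FPKM in every pool, while Neurod1, which other neurons express as well, was at 1.61 FPKM in olanzapine pool 1 and at 0.207 to 0.437 FPKM in the other pools.

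Both beta subunits measured, which the receptor needs to reach the surface, had lower means in the olanzapine pools. Gabrb1 (chr5:71658113-72149037) was at 16.2, 14.6 and 12.8 FPKM in the control pools and at 10.7, 9.81 and 11.01 in the olanzapine pools, so every olanzapine pool lay below every control pool. Its mean of 10.5 ± 0.619 FPKM (SD, n = 3) was set against 14.5 ± 1.72 in the control group, and its log2 fold change of -0.49 ± 0.11 had the lowest adjusted p of the 26 genes (edgeR, 0.0607). Over 17 alternatives that adjusted p ran from 0.00153 with DESeq2 to 0.185, and 4 of them called the gene. Without olanzapine pool 1 its log2 fold change was -0.52 (edgeR adjusted p = 0.0532), so the value did not rest on that pool.
Gabrb2 was at 32.5, 27.9 and 23.3 in the control pools and at 25.4, 21.0 and 21.4 in the olanzapine pools. Only olanzapine pool 1 lay above a control pool, and the log2 fold change was -0.32 ± 0.14 (edgeR adjusted p = 0.286). It was -0.43 without olanzapine pool 1 and -0.19 without control pool 1.

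The delta subunit went the other way. Gabrd (chr4:155384980-155398112), which serves receptors outside the synapse that carry tonic inhibition, was at 11.6, 19.0 and 13.2 FPKM in the control pools and at 19.8, 23.2 and 20.3 in the olanzapine pools. All olanzapine pools were above all control pools, but control pool 2 came close to the lowest olanzapine pool. The log2 fold change was 0.51 ± 0.17 (edgeR adjusted p = 0.172), it was 0.53 without olanzapine pool 1, and without control pool 2 it was 0.75 with an edgeR adjusted p of 0.0361, in a fit that called 0.738% of all tested genes. Over the 17 alternatives its adjusted p ran from 0.0361 to 0.376.
Markers of other regions also differed between the pools. The 8 striatal projection neuron markers, all above 0 in every pool, summed to 517, 927 and 703 FPKM in the control pools and to 544, 1129 and 1066 in the olanzapine pools. Among the 5 pools other than olanzapine pool 1, Gabrd had the same order as this sum. In olanzapine pool 1 the striatal sum was low and the cortical markers were high. With the cortical marker level as a covariate, added after the values were seen, the log2 fold change of Gabrd was 0.52, and the part of striatal tissue was not tested.

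The remaining GABA-A subunits had lower values, most so in olanzapine pool 1. Gabrg3, a gamma subunit, was at 6.54, 5.89 and 5.15 FPKM in the control pools and at 4.55, 4.87 and 5.06 in the olanzapine pools, without overlap but with control pool 3 just above olanzapine pool 3. The log2 fold change was -0.30 ± 0.10 (edgeR adjusted p = 0.175). Gabrq, the theta subunit, was at 5.28, 3.74 and 4.62 and at 2.23, 3.47 and 3.77, where olanzapine pool 3 lay just above control pool 2. Its log2 fold change was -0.55 ± 0.20 (edgeR adjusted p = 0.204), and -0.37 without olanzapine pool 1.
Gabre, the epsilon subunit, was at 2.79, 2.11 and 1.57 in the control pools and at 0.758, 1.62 and 1.63 in the olanzapine pools. Olanzapine pool 1 was the lowest by far, and the log2 fold change of -0.72 ± 0.32 (edgeR adjusted p = 0.295) became -0.45 without it. Gabrg1 was at 10.7, 8.53 and 8.40 and at 6.31, 8.13 and 9.08, with a log2 fold change of -0.26 ± 0.15 (edgeR adjusted p = 0.404) that became -0.14 without olanzapine pool 1.

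Several of these subunit genes lie side by side in the genome, and the genes of a cluster did not all share their pool pattern. On chromosome 5, Gabrg1, Gabra2, Gabra4 and Gabrb1 lie within 70751047 to 72149037, and their log2 fold changes were -0.26, 0.08, 0.02 and -0.49. Gabra4 and Gabrb1 lie head to head on opposite strands and share 46 exon bases. On the X chromosome, Gabre, Gabra3 and Gabrq lie within 72255999 to 72842602, and in olanzapine pool 1 Gabre and Gabrq were at their lowest while Gabra3 was at its highest. On chromosome 7, Gabrg3 and Gabra5 lie within 56716465 to 57510059, and in that pool they were lowest and highest too. Gabra6 and Gabrb2 lie within 42306437 to 42629028 on chromosome 11, with Gabrb2 expressed and Gabra6 near 0. The strand setting of the counting was not given in the sources used here, so reads on bases shared with a gene on the opposite strand cannot be told apart. Besides the pair above, this touches Gabra5 (148 bases shared with Gm9962), Glra1 (141 with Gm12236, which had 11 counts in all 6 pools), Slc32a1 (697 with Gm14205) and Gphn (147 with Gm48226).

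The GABA-B receptor is a pair of 2 subunits, and they behaved unalike. Gabbr1, which binds GABA, varied little, at 145, 137 and 133 FPKM in the control pools and at 133, 132 and 138 in the olanzapine pools. This gave a log2 fold change of -0.06 ± 0.08 (edgeR adjusted p = 0.721). Gabbr2 (chr4:46662305-46991873), which couples to the G protein and whose upstream sequence is printed above, was at 45.5, 40.1 and 38.4 in the control pools and at 57.5, 32.7 and 31.0 in the olanzapine pools. Olanzapine pool 1 was the highest of all pools and the other 2 olanzapine pools were the lowest.
The log2 fold change of Gabbr2 was -0.05 ± 0.23 with all pools (edgeR adjusted p = 0.937) and -0.41 without olanzapine pool 1 (edgeR adjusted p = 0.0511, the lowest of its 17 alternatives, which reached 0.971). Of the 7 cortical glutamatergic markers, Nrgn made up most of the sum. The other 6 summed to 12.2, 21.1 and 28.5 FPKM in the control pools and to 279, 10.3 and 7.08 FPKM in the olanzapine pools, so olanzapine pool 1 was far above and the other olanzapine pools below the control pools. With the mean log2 level of the list as a covariate, added after the values were seen, the log2 fold change of Gabbr2 was -0.24 (edgeR adjusted p = 0.352).

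**Figure D3:**
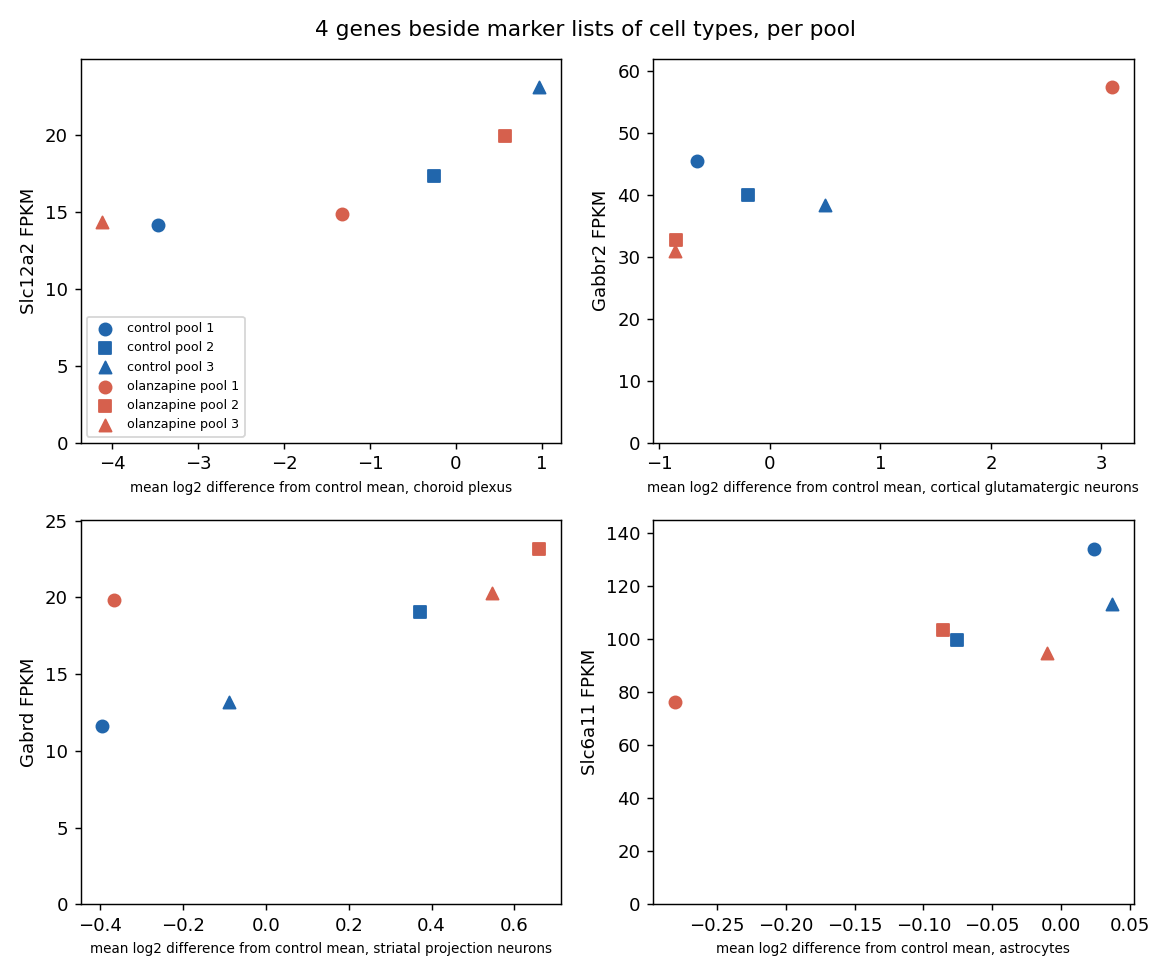
FPKM of Slc12a2, Gabbr2, Gabrd and Slc6a11 in each pool against a marker list of another cell type, given as the mean log2 difference of its genes from their control mean. Slc12a2 was highest in control pool 3, which was also highest in choroid plexus markers, at 0.97, and Gabbr2 was highest in olanzapine pool 1, at 3.09 in cortical markers. Gabrd in olanzapine pool 1 lies above the other pools of low striatal marker level, and Slc6a11 was lowest where astrocyte markers were lowest, at -0.28.

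The glycine receptor genes had log2 fold changes below 0 in all 4 subunits with all pools, and Glrb was above 0 when control pool 1 or olanzapine pool 2 was left out. Glra1 (chr11:55514238-55608198), the adult alpha subunit of spinal cord and brainstem, was scarce, with counts of 69, 91 and 71 in control pools 1 to 3 and of 16, 33 and 45 in olanzapine pools 1 to 3. Every olanzapine pool was below every control pool, and olanzapine pool 1 was the lowest. The control group had a mean of 0.804 ± 0.126 FPKM (SD, n = 3) and the olanzapine group of 0.337 ± 0.155.
The log2 fold change of Glra1, -1.28 ± 0.39, was the largest in size among the 26 genes, with an edgeR adjusted p of 0.145. It was -0.97 without olanzapine pool 1. DESeq2 gave -1.29 with an adjusted p of 0.0476, and over all 17 alternatives the adjusted p reached 0.361. Its log2 fold change ran from -1.63 without olanzapine pool 3 to -0.44 with limma on log2(FPKM + 1), a scale that understates the change of a gene this low. These counts are small, so the value rests on few reads.
Glra2, the main alpha subunit of the young forebrain, was at 13.1, 11.2 and 10.9 FPKM in the control pools and at 8.996, 10.1 and 11.1 in the olanzapine pools. Here the log2 fold change was -0.25 ± 0.11 (edgeR adjusted p = 0.284), and -0.15 without control pool 1. Glra3 was at 2.42, 1.75 and 1.73 and at 1.64, 1.70 and 1.87, with a log2 fold change of -0.20 ± 0.16 that became -0.019 without control pool 1, its highest pool. Glrb, the beta subunit that binds the scaffold and was the most abundant of the family, was at 52.0, 47.8 and 43.7 and at 50.01, 43.3 and 46.7, with a log2 fold change of -0.06 ± 0.10. The groups of these 3 genes overlapped. Gphn, gephyrin, the scaffold under both receptor types, was at 4.48, 4.77 and 4.14 in the control pools and at 4.64, 4.47 and 4.93 in the olanzapine pools, a log2 fold change of 0.05 ± 0.08 (edgeR adjusted p = 0.821).

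The chloride transporters showed no difference between the diets beyond the spread of the pools. Slc12a5, which encodes KCC2 and moves chloride out of mature neurons, was at 105, 101 and 84.0 FPKM in the control pools and at 101, 81.9 and 88.7 in the olanzapine pools. The groups overlapped, with a log2 fold change of -0.12 ± 0.12 (edgeR adjusted p = 0.670) that became -0.22 without olanzapine pool 1. Slc12a2, which encodes NKCC1 and moves chloride inward, was at 14.1, 17.3 and 23.1 and at 14.8, 19.9 and 14.4, with a log2 fold change of -0.18 ± 0.18 (edgeR adjusted p = 0.663).
NKCC1 is also a major transporter of the choroid plexus, whose markers summed to 45.2, 1893 and 5365 FPKM in the control pools and to 803, 3452 and 29.1 in the olanzapine pools. The 4 pools with the most choroid plexus marker RNA had the highest Slc12a2, in the same order, and the 2 pools with least of it had the lowest. The ratio of Slc12a5 to Slc12a2 spread within the groups, from 3.64 to 7.44 in the control pools and from 4.11 to 6.78 in the olanzapine pools (exact permutation p = 0.9). With the choroid plexus marker level as a covariate, also added after the values were seen, the log2 fold change of Slc12a2 was -0.08. In that fit edgeR called 1 of the 26 genes at an adjusted p under 0.05, against 2.34% of all genes. This was Gabrb1, at -0.53 with an adjusted p of 0.0215.

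Seen by pool rather than by gene, control pool 1 was the highest of the 6 pools in 16 of 26 genes (61.5%), where it was highest in 17.6% of all tested genes. Olanzapine pool 1 was the lowest in 11 of 26 (42.3%), where it was lowest in 22.3% of all tested genes, and it was the highest in 4, against 22.8%. Olanzapine pool 2 was the lowest in 9 of 26 (34.6%), against 18.0%. Without olanzapine pool 1, 8 of the 26 genes had an unadjusted p under 0.05 in edgeR, against 18.8% of all genes, and 0 were called at an adjusted p under 0.05, against 2.87%. The 8 were Gabra5, Gabrb1, Gabrb2, Gabrg3, Gabrq, Gabbr2 and Glra1 with lower values and Gabrd with a higher one. The median log2 fold change was -0.18 with and without olanzapine pool 1. Without control pool 1, 2 of the 26 genes had an unadjusted p under 0.05 in edgeR, against 13.4% of all genes. The share without overlap was then 19.2%, against 33.0%.

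**Figure D4:**
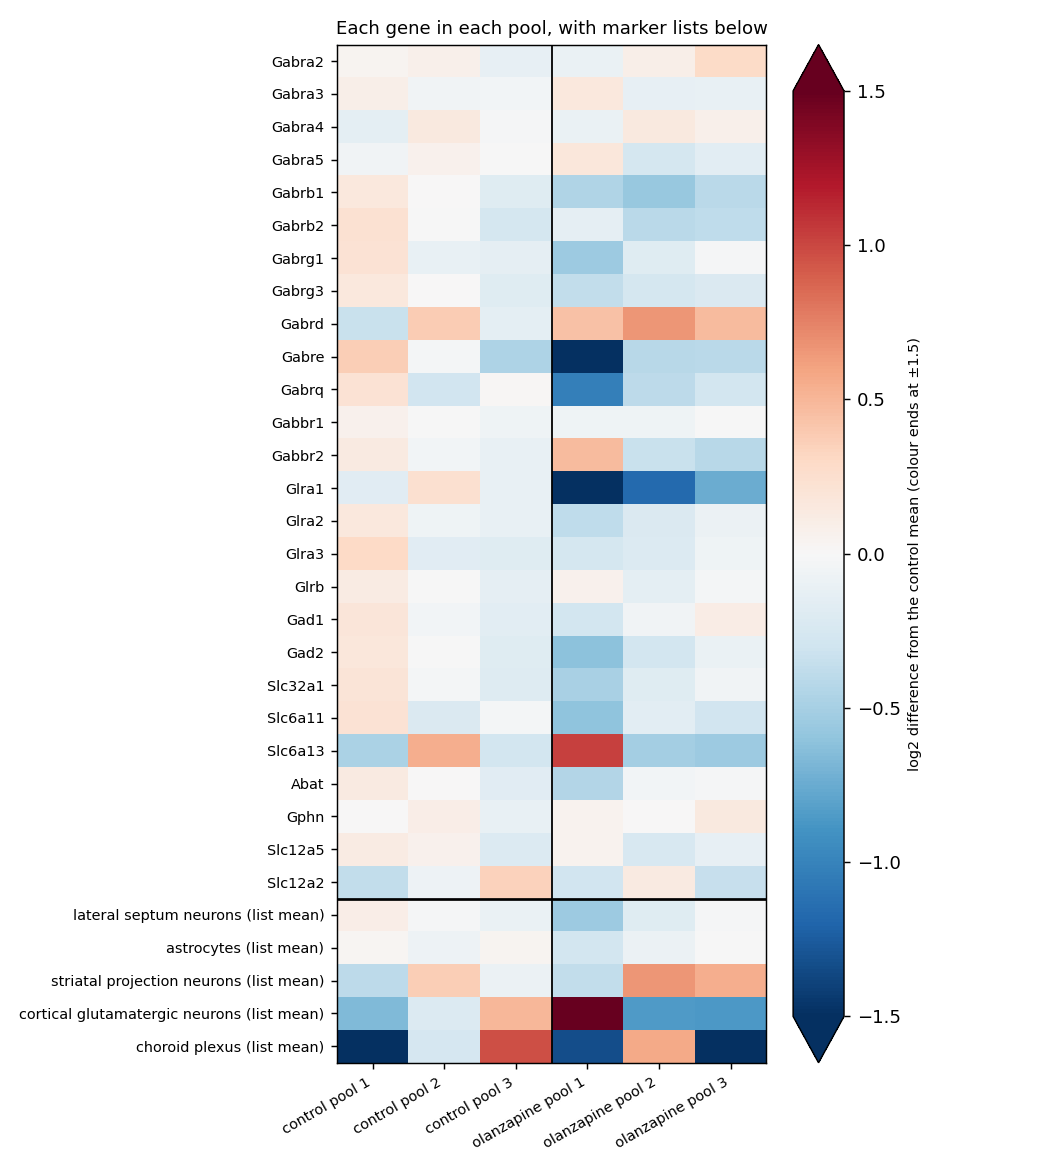
Log2 difference of each tested gene from its control mean in each pool, in color from blue (lower) to red (higher), with the mean of 5 marker lists in the lowest rows. Olanzapine pool 1 is blue for Gabre, Gabrq, Glra1, Gad2, Slc32a1 and Slc6a11 and red for Gabbr2 and Slc6a13, and its cortical marker row is the reddest, at 3.09.

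**Figure D5:**
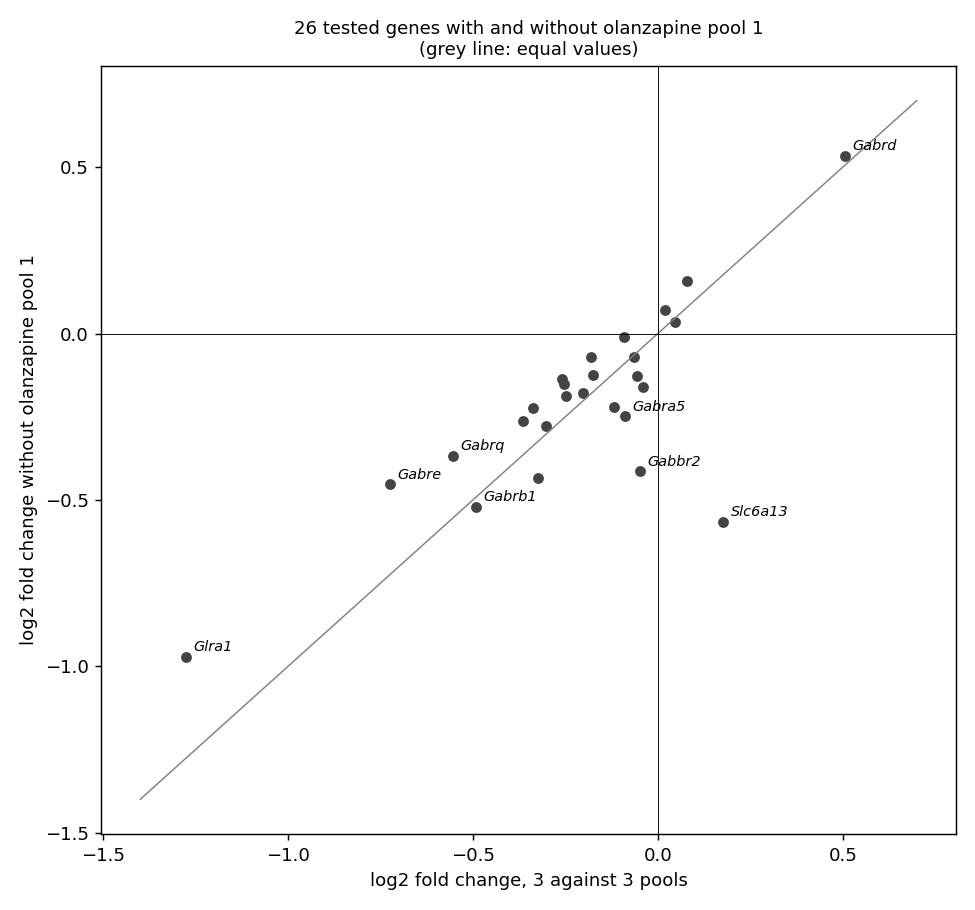
Log2 fold change of the 26 tested genes with all pools on the horizontal axis and without olanzapine pool 1 on the vertical axis. Gabrb1 and Gabrd lie close to the line of equal values, while Gabbr2 moved from -0.05 to -0.41 and Slc6a13 from 0.18 to -0.57.

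Around these genes, 51 others of inhibitory transmission were examined, of which 50 were tested. Only Slc38a1, a glutamine transporter of neurons that supplies the precursor of GABA, fell at an edgeR adjusted p under 0.05, which is 1 of 50 (2.0%), against 2.32% of all tested genes. It was at 37.3, 33.8 and 32.8 FPKM in the control pools and at 25.8, 26.2 and 27.1 in the olanzapine pools, with all olanzapine pools well below all control pools. Its log2 fold change was -0.42 ± 0.08 (edgeR adjusted p = 0.0360), and over 17 alternatives the adjusted p ran from 0.000283 to 0.132, with 10 of them calling it. It was not called when any 1 pool other than olanzapine pool 1 was left out, with the replicate block, or with limma without a filter on low values, while its log2 fold change stayed between -0.46 and -0.36.
At an unadjusted p under 0.05 there were 12 of the 50 genes (24.0%, against 17.6% of all genes), 6 higher and 6 lower, and 8 did not overlap between the groups (16.0%, against 24.3%). In 38 of the 50 (76.0%) the log2 fold change was below 0, against 49.3% of all genes, so these related genes leaned down as well, with a median of -0.09. Glul, glutamine synthetase, was the most abundant gene of the set at a mean of 845 FPKM, with a log2 fold change of 0.02.

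Partners of the receptors went in both directions. Shisa7, an auxiliary subunit of GABA-A receptors, had a log2 fold change of 0.28, Insyn1, an inhibitory synapse protein, of 0.23, and Lhfpl4, which links the receptor to neuroligin, of -0.20, with edgeR adjusted p of 0.175, 0.236 and 0.242. The most abundant of that group, Gabarapl1 at 397 FPKM and Maged1 at 329 FPKM, had log2 fold changes of 0.08 and -0.04. Of the GABA-B auxiliary subunits, Kctd12 and Kctd12b had lower values, at log2 fold changes of -0.29 and -0.44, and Kctd16 a higher one, at 0.31, with edgeR adjusted p of 0.217 to 0.277. Without olanzapine pool 1 the value of Kctd16 was 0.16. Ajap1, which binds the GABA-B receptor outside the cell, had a log2 fold change of -0.13.
Among regulators of chloride, the kinases Wnk1 and Wnk3, which act on both cotransporters, had log2 fold changes of -0.21 and -0.46, with edgeR adjusted p of 0.205 and 0.10. DESeq2 called Wnk3, at an adjusted p of 0.0179, where it called 5.73% of all genes. Over 17 alternatives the adjusted p of Wnk3 reached 0.257, and 1 of them called it. The chloride channel Clcn2 was at 0.41 and the carbonic anhydrase Car7 at 1.10, with edgeR adjusted p of 0.246 and 0.218. Car7 was at 3.36 FPKM in olanzapine pool 1 and at 0.842 to 1.67 FPKM in the other pools. Without olanzapine pool 1 the log2 fold change was 0.23 for Clcn2 and 0.47 for Car7. Car2, the most abundant of the group at 137 FPKM, had a log2 fold change of -0.00. Of the genes that make modulators of the GABA-A receptor, Dbi at 299 FPKM and Tspo at 4.47 FPKM had log2 fold changes of -0.12 and -0.50. Over the 17 alternatives these ran from -0.23 to 0.09 for Dbi, which was above 0 without olanzapine pool 1, and from -0.85 to -0.34 for Tspo, and 0 of the 4 had an unadjusted p under 0.05 in edgeR.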

How the data were processed

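Total RNA of lateral septum pools, each from 3 mice, was sequenced as 6 libraries. Per the labels, the authors used fastp, HISAT2, HTSeq and mm10; versions and the strand setting were not given in the sources used here. The authors deposited raw read counts per gene and, in a second table, FPKM values computed by them; no sample's column went unused (0 left). Groups came from the labels. Counts were fitted in edgeR 4.0.16 (R 4.3.3) with TMM, the group as the only term, filterByExpr (minimum count 10, minimum total 15), and the quasi-likelihood F test. The SE is the size of the log2 fold change divided by the square root of F. FPKM was used for levels and ratios, the latter by exact permutation tests. Gene positions came from GENCODE for GRCm38. The fits were tested on simulated data.

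Alternatives were DESeq2 1.42.0, RLE or upper-quartile factors, fitting without the filter, keeping genes that average 50 counts or more, a replicate block, limma 3.58.1 on log2(FPKM + 1) or log2(FPKM + 0.1) at a mean FPKM of at least 0.1 or on log2(FPKM + 1) without this filter, and leaving out each pool. Covariates for cortical and choroid plexus markers, each the mean log2(FPKM + 0.1) of the list, were added after seeing the data. The genes and lists were chosen with earlier results of these data known. Named were all 27 genes, the pathway genes with an unadjusted p under 0.05 and the 2 most abundant of each pathway list, and markers of the tissue or of others. The values of 1 gene of the pathway lists are not reported here; the counts over the lists include it.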

Additional observations from a re-analysis of the deposited data

How the results depend on the processing

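Among 442 log2 fold changes of the 26 genes recomputed under the alternatives, 417 kept their sign and their side of the adjusted p threshold, 6 passed it only in the alternative and 19 changed sign. 16 genes kept their sign throughout. The number of genes called at an adjusted p under 0.05 was 0, and it was 2 with DESeq2 (5.73% of all genes), 1 each with the choroid plexus covariate (2.34%), without a count filter (1.76%) and with upper-quartile factors (2.55%), Gabrb1 in each, and 0 to 1 when a pool was left out (0.738% to 2.87%), where 1 was Gabrd without control pool 2. With the fold change limit DESeq2 called 1 (1.6%). The 7 genes at an unadjusted p under 0.05 became 12 with the choroid plexus covariate (17.7% of all genes), 4 with limma without a filter (13.6%), and 2 (without control pool 1, 13.4%) to 11 (without olanzapine pool 3, 15.7%). The 5 genes without overlap became 5 to 12 with a pool left out, where 32.1% to 37.6% of all genes had none. It was 12 (46.2%) without control pool 3 or olanzapine pool 3, against 34.8% and 33.3% of all genes, and 10 (38.5%) without olanzapine pool 1, against 37.6%. It was 5 (19.2%) without control pool 1, against 33.0%, and 6 (23.1%) without control pool 2, against 32.1%. Without olanzapine pool 2 it was 5 (19.2%), against 34.4%. The 1 pathway gene of 50 became 3 with DESeq2, against the 5.73% above, 0 with limma without a filter (0.922% of all genes), and 0 to 2 with a pool left out (0.738% to 2.87%), where the second was Kcnj6 without olanzapine pool 1. Apart from fewer pools, the cause of these moves was not tested.

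Leaving out a pool took the log2 fold change from -0.41 to 0.11 in Gabbr2, -0.030 to 0.16 in Gabra2, -0.16 to 0.028 in Gabra3, -0.042 to 0.10 in Gabra4, -0.25 to 0.015 in Gabra5, -0.19 to 0.016 in Gad1, -0.13 to 0.015 in Glrb, -0.0036 to 0.097 in Gphn, -0.32 to 0.036 in Slc12a2 and -0.57 to 0.55 in Slc6a13, which was also -0.26 with the cortical covariate. The log2 difference of a ratio ran from -0.24 to 0.27 for Slc12a5 to Slc12a2, -0.14 to 0.34 for Gabbr1 to Gabbr2 and -0.81 to 0.25 for Slc6a11 to Slc6a13. The cause was not tested. Without a change of sign, the log2 fold change ran over the alternatives from -0.38 to -0.13 in Gabrg1, -0.91 to -0.44 in Gabre, -0.71 to -0.37 in Gabrq, -0.092 to -0.023 in Gabbr1, -0.46 to -0.22 in Gad2, -0.36 to -0.14 in Slc32a1, -0.46 to -0.24 in Slc6a11, -0.26 to -0.07 in Abat and -0.22 to -0.036 in Slc12a5. Of the pathway genes named, Dbi, Maged1, Glul and Car2 changed sign, and Kctd12b ran from -0.56 to -0.23, Kctd16 from 0.16 to 0.41, Clcn2 from 0.23 to 0.54 and Car7 from 0.47 to 1.42. The median over the genes stayed between -0.23 and -0.10.

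Pools of the same number did not deviate together (correlations of -0.00, 0.06 and -0.25), so there was no sign that the numbers pair the samples. With 3 pools per group, each differing in tissue content, this check cannot exclude a pairing. The replicate block called 0 of the genes and 0 pathway genes (0.811% of all genes), with 6 genes at an unadjusted p under 0.05 (16.8%). With 3 pools per group an exact permutation test cannot go below 0.1, and Glra1 and Gabra6 rest on few counts.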
